A study of Mus musculus with 1152 samples.

Results

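Mature oligodendrocytes, the cells that make and keep the myelin of the adult brain, were taken from a plate-based single-cell RNA data set of the mouse brain by their transcripts. A well was counted as a mature oligodendrocyte when it held at least 50000 reads, at least 800 CPM of Mog and at least 1000 CPM of Mag, under 500 CPM of Enpp6, under 100 CPM of Pdgfra, and under 5% of reads on mitochondrially encoded genes. CPM is the count of a gene per 1000000 reads of its well. Of 1152 wells, 857 reached 50000 reads, and 197 of these met the rule (23.0%, exact Clopper-Pearson 95% interval 20.2 to 26.0%). The levels of Mog, Mag, Enpp6 and Pdgfra chose the wells and are therefore descriptions only. The lowest Mog level inside the rule was 898 CPM and the nearest outside, among wells that failed by Mog alone, was 784 CPM. The same pair of values was 1106 and 117 CPM for Mag. The highest Enpp6 level inside was 479 CPM, against 777 CPM for the nearest well outside. For Pdgfra these values were 81.5 and 125 CPM.

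By the labels, the cells came from adult C57BL/6 mice of both sexes, although the mature wells held hardly any Xist reads. They were fluorescent cells sorted from Pdgfra-H2BGFP animals, in which a green nuclear protein is made where Pdgfra is active, and from Tagl-CREERT2;Ai14 animals, in which a tamoxifen-dependent recombinase turns on a red protein. Before the sort, brain tissue was broken up and its vessel fragments were collected on beads that bind CD31, a surface protein of endothelial cells. Pdgfra is known as a gene of precursor cells and fibroblasts, not of mature oligodendrocytes. The wells fall into 3 sets of 384 by their names, 1025s_182s, 600s_182s and 613s. No label ties a well or a set to a mouse line, an animal or a plate, so all wells are 1 sample. Cells are not replicates, and no comparison has a replicate check or a test. "Higher" and "lower" below mean a difference of at least 2-fold between the CPM of the summed counts of 2 classes of wells, with 1 CPM added to each side and at least 10 CPM in the higher class. The mature wells were set against 228 oligodendrocyte precursor wells (at least 100 CPM of Pdgfra, at least 200 CPM of Cspg5 and of Ptprz1, under 200 CPM of Enpp6) and against 78 Enpp6-high wells (at least 500 CPM of Enpp6, under 100 CPM of Pdgfra, under 5% mitochondrial reads). The Pdgfra-H2BGFP and Tagl-CREERT2;Ai14 alleles cannot be assigned to any of these classes.

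Oligodendrocytes arise from dividing precursor cells that carry the platelet-derived growth factor receptor alpha, pass through a short committed stage in which Enpp6 is made, and then wrap axons. Myelin is a stack of plasma membrane, rich in cholesterol and galactolipids, that is held together by a few abundant membrane and cytoplasmic proteins. Mature cells also feed axons with lactate, store iron and clear potassium through gap junctions shared with astrocytes.

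The promoters of Opalin, Ermn and Mobp, the 3 label genes that the rule did not use, are given because the mature wells were checked with these genes. Each runs from 250 bases before to 50 bases after the RefSeq start of the gene in GRCm38.p6, 5′ to 3′ on the gene's strand. Capitals mark exact matches on either strand to ACAAAG, a core of SOX factor motifs, or to CTGGCAC, a core of the motif of the myelin regulatory factor MYRF. On the reverse strand these letters read CTTTGT and GTGCCAG, and the motifs share no overlap here.
Opalin, chr19:41077064-41077363, minus strand: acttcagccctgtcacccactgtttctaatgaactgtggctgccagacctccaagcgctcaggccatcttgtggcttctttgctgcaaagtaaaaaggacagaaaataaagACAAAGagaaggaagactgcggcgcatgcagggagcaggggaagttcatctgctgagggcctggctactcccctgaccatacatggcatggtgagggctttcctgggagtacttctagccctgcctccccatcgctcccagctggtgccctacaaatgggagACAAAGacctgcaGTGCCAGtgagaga
Mobp, chr9:120149492-120149791, plus strand: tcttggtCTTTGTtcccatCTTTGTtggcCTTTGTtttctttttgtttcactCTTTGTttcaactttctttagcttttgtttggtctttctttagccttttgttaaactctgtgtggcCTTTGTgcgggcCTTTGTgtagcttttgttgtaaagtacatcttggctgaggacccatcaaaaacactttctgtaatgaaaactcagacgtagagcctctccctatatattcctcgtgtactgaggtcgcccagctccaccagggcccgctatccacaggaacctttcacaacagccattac
Ermn, chr2:58052815-58053114, minus strand: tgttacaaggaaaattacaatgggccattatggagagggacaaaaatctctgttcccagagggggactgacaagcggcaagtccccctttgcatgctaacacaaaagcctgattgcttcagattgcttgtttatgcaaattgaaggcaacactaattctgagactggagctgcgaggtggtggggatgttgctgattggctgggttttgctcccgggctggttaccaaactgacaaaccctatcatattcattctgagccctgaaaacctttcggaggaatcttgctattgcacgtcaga
The Opalin window held ACAAAG at bases 112 and 274 and the reverse of CTGGCAC at base 287. The Mobp window held 6 matches to the reverse of ACAAAG and none to CTGGCAC, and the Ermn window held none of either. Of 27025 RefSeq promoters of this length, 18.7% held ACAAAG and 5.00% held CTGGCAC. Among genes at least 2-fold higher in mature than in precursor wells within every well set, 14.0% and 6.63% of 543 matched promoters held them, against 13.0% and 4.84% of the 8458 matched promoters of all genes measured. A match is a description of letters in this window and not a binding site.

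The mature wells held 65938 to 1451280 reads (median 387350), against 54417 to 1061289 (median 261721) in precursor wells. They were 70 of 239 kept wells in 1025s_182s (29.3%), 51 of 349 in 600s_182s (14.6%) and 76 of 269 in 613s (28.3%). Precursor wells numbered 20, 179 and 29 in the same sets, and Enpp6-high wells 7, 63 and 8. Pooled ratios therefore set mature wells spread over all sets against precursor wells that came mostly from 600s_182s. Ratios within each set are given in the text for some genes and lists only. The plot of list medians shows the median within each set for the lists drawn. All other ratios are pooled and can depend on the set. After every well was thinned to 50000 reads, a median of 3756 genes was detected in mature wells, against 4287.5 in precursor wells. This pooled difference did not hold in every set. The medians in mature and precursor wells were 2716.5 and 2838.5 in 1025s_182s, 5049 and 4451 in 600s_182s, and 3711.5 and 3939 in 613s.

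The label was checked with Opalin, Ermn and Mobp. Opalin, a transmembrane protein of central myelin (chr19:41061710-41077113, minus strand, GRCm38), had 325 to 3149 CPM (median 1557) in the 197 mature wells and 0 to 1188 CPM (median 34.0) in the 228 precursor wells. The lowest mature well was reached by 10 precursor wells, so the classes overlapped in those wells. The summed level was 1430.3 CPM in mature wells and 64.4 CPM in precursor wells, a log2 ratio of 4.45. Ermn, a cytoskeletal protein of myelin (chr2:58045113-58052864, minus strand, GRCm38), had 5.70 to 3061 CPM (median 1337) in mature wells and 0 to 1809.8 CPM (median 14.1) in precursor wells. It reached 100 CPM in 195 mature wells, and the 2 exceptions put the lowest mature well inside the precursor range. Mobp, a basic protein of compact myelin (chr9:120149707-120181484, plus strand, GRCm38), had 1379 to 9955 CPM (median 4469) in mature wells and 15.7 to 5401 CPM (median 528) in precursor wells. Here the classes overlapped more, with 56 precursor wells at or above the lowest mature well. All 3 genes reached 100 CPM in 195 of the 197 mature wells (99.0%, interval 96.4 to 99.9%), in 10 of 228 precursor wells (4.39%), in 4 of 78 Enpp6-high wells (5.13%) and in 80 of the 660 kept wells outside the mature class (12.1%). The label thus held for these 3 markers in all but 2 mature wells. Wells that held these markers could still hold genes of earlier stages, such as Gpr17 and Bcan. A mature well of 600s_182s had 1471 CPM of Gpr17 and 1179 CPM of Bcan, with 1.47 CPM of the late gene Aspa. Another had 1236 CPM of Gpr17 and 1914 CPM of Bcan, with 10.1 CPM of Aspa. These wells were picked as examples after the data were seen.

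**Figure D1:**
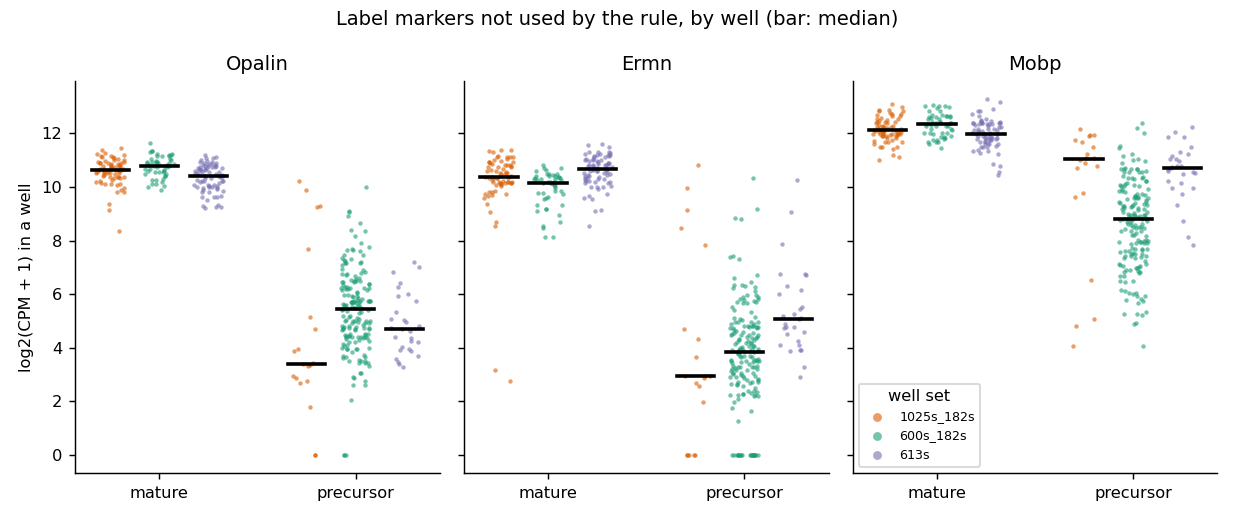
Levels of Opalin, Ermn and Mobp in each mature well (left) and each precursor well (right), as log2(CPM + 1), coloured by well set, with a bar at the median. Mature wells sit above nearly all precursor wells for Opalin and Ermn, while 56 precursor wells reach the lowest mature well for Mobp.

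Set against precursors, 11 of 17 measured myelin protein genes and 28 of 33 mature state genes were higher in mature wells, and 21 of 22 precursor genes, 15 of 28 lineage transcription factors and 13 of 16 proliferation genes were lower. Lists of axon contact, channel, sugar handling, iron and receptor genes held members on both sides. Over the 11421 genes with at least 10 CPM in either class, 1306 were higher (11.4%) and 3502 were lower (30.7%) in mature wells. The count of higher genes was 2022 without wells holding at least 3 markers of another cell type at 200 CPM. When the same direction and size were also asked of every well set, 757 genes were higher (6.63%) and 1645 were lower (14.4%). The median log2 ratio over all measured genes was -0.39, so the members of each list below are to be read beside that value. Because the rule chose both classes by oligodendrocyte genes, these counts describe the contrast that the rule made and support nothing about it. A few genes, such as Opalin, Gpr17 and Neu4, stand on more than 1 list.

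**Figure D2:**
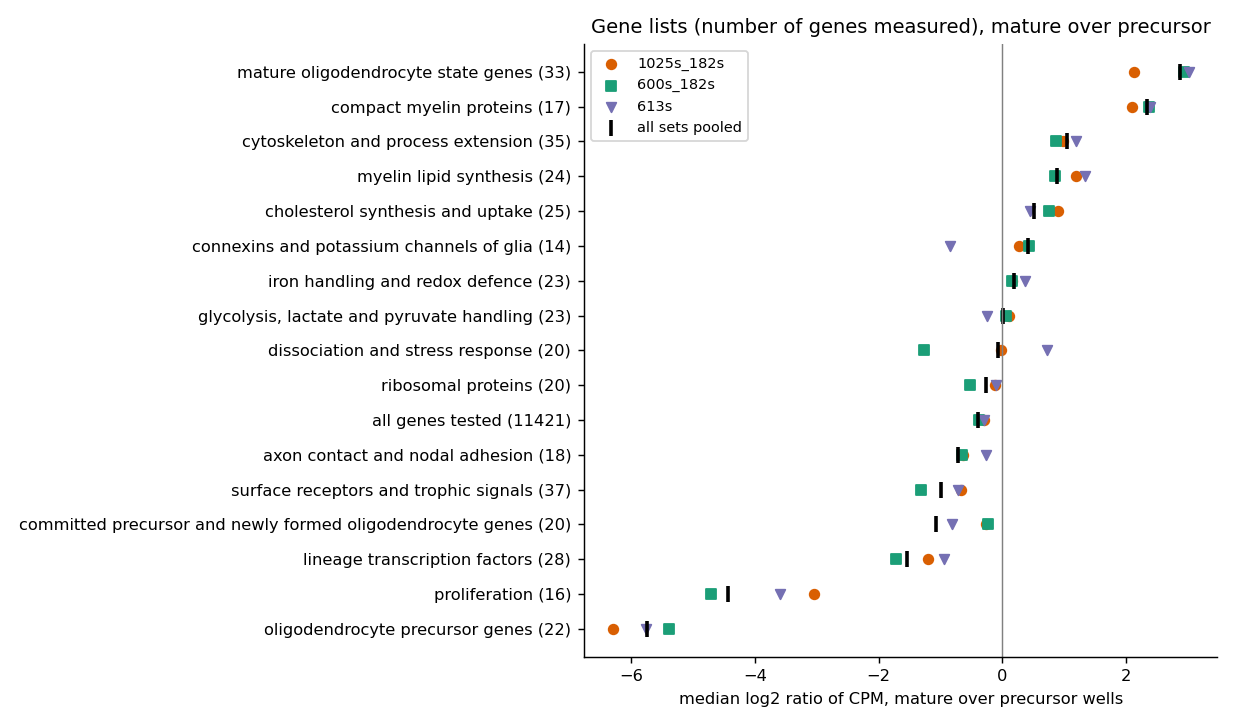
Median log2 ratio of mature over precursor wells for each gene list, pooled and within each well set, beside all measured genes. Of the lists drawn, the mature state list has the highest pooled median (2.87) and the precursor list the lowest (-5.74).

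Of the 17 measured myelin protein genes outside the rule, 11 were higher and 1 was lower in mature wells, and the median log2 ratio was 2.34. Cnp, a phosphodiesterase that keeps cytoplasmic channels in myelin open (chr11:100574904-100591729, plus strand, GRCm38), had 2929.8 to 14235 CPM (median 6481) in mature wells and 27.4 to 6702 CPM (median 996) in precursor wells, and 12 precursor wells reached the mature range. Cldn11, the claudin of the tight junctions between myelin layers, was at 3571 CPM in mature and 399 CPM in precursor wells (log2 ratio 3.16). Mal, a raft proteolipid of late myelin, stood at 4095 CPM in mature and 253 CPM in precursor wells (log2 ratio 4.01), and the tetraspanins Tspan2 and Cd82 had log2 ratios of 3.67 and 4.71. Mbp, the myelin basic protein, differed less than these, with 4517 CPM in mature and 2201 CPM in precursor wells. Its log2 ratio was 1.04 pooled and 0.38 in 1025s_182s, 1.25 in 600s_182s and 0.37 in 613s, and 127 of 228 precursor wells lay at or above the lowest mature well. Pllp, Plekhb1, Omg and Gpm6b passed no fold, at log2 ratios of 0.46, 0.62, 0.64 and 0.20. Pmp22, a myelin protein chiefly of peripheral nerve, was the lower one, at 77.8 CPM in mature and 161 CPM in precursor wells.

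Together the 20 listed myelin genes took 4.97% of the reads of mature wells, with a range over wells of 2.92 to 10.6%, against 1.18% in precursor wells. Per kilobase of annotated exon and per 1000000 reads, the level in mature wells was highest for Cldn11 (1909.7), Cnp (1583) and Mal (1474) among the genes described here, with Mog at 1391, Mag at 973, Mobp at 665 and Opalin at 485. The counts depend on the authors' annotation and treatment of shared reads, which were not stated. These lengths are those of merged GENCODE exons, and a gene with a long exon that the cells do not use is understated.

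Axon contact genes went both ways. Of 18 measured, 6 were higher and 7 were lower, and their median log2 ratio was -0.72. Cntn2, the adhesion molecule that gathers potassium channels beside the paranode, had 0 to 3585 CPM (median 523) in mature wells and 0 to 1400.4 CPM (median 4.98) in precursor wells. Some mature wells held no Cntn2 read, so the classes overlapped over the whole lower range, although the summed levels were 597 CPM in mature and 29.0 CPM in precursor wells. Lgi3, a secreted leucine-rich ligand, was at 2345 CPM in mature and 131 CPM in precursor wells, and Nfasc, whose glial form anchors the paranodal loops, at 1324 CPM in mature and 216 CPM in precursor wells. Ank3, a scaffold of the paranode, Rtn4, the neurite outgrowth inhibitor Nogo, and Jam3, an adhesion molecule, were the other higher members. On the lower side stood Lingo1, known to restrain differentiation of oligodendrocytes, at 0.976 CPM in mature and 73.9 CPM in precursor wells, and Nrcam, a cell adhesion molecule of the nodal region, at 17.5 CPM in mature and 286 CPM in precursor wells. Cntn1, a contactin that precursors also carry, had 0 to 2276 CPM (median 206) in mature wells and 229 to 4355 CPM (median 1651) in precursor wells, and its summed log2 ratio was -1.89.

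Among 14 measured connexin and potassium channel genes, 4 were higher and 5 were lower. Their median log2 ratio was 0.42 pooled, 0.27 in 1025s_182s, 0.42 in 600s_182s and -0.85 in 613s. Gjb1, a main connexin of oligodendrocytes, was at 481 CPM in mature and 39.4 CPM in precursor wells. Gjc3, also a connexin of the lineage, was at 565 CPM in mature and 366 CPM in precursor wells and passed no fold. Of the channels, Kcna1 had a log2 ratio of 3.28 and Hcn2 of 1.54, and Kcnj10, the inward rectifier that takes up potassium, of 0.78, under the fold. Panx1, a pannexin channel, was the lowest member, at 0.954 CPM in mature and 64.5 CPM in precursor wells.

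In the lipid synthesis list, 11 of 24 measured genes were higher and 2 were lower in mature wells, and their median log2 ratio was 0.88. Fa2h, which hydroxylates the fatty acids of myelin galactolipids, had 130.4 to 3209 CPM (median 1413) in mature wells and 0 to 1595 CPM (median 57.0) in precursor wells. Its summed levels were 1370.1 CPM in mature and 141 CPM in precursor wells. Ugt8a, which makes galactosylceramide, was at 1631 CPM in mature and 325 CPM in precursor wells, and Cers2, the ceramide synthase for very long chains, at 1644 CPM in mature and 238 CPM in precursor wells. Gal3st1, the next enzyme after Ugt8a, which makes sulfatide, passed no fold (log2 ratio 0.93). The fatty acid elongases Elovl7 and Elovl1 had log2 ratios of 4.40 and 3.07, while the desaturase Fads2 was lower, at 10.3 CPM in mature and 144 CPM in precursor wells. Aspa, which splits N-acetylaspartate into aspartate and the acetate used for lipids, had 0 to 1979.8 CPM (median 657) in mature wells and 0 to 581 CPM (median 4.95) in precursor wells. Its summed log2 ratio of 4.93 was the largest of the list, and wells without a read of it occurred in both classes.

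Cholesterol genes differed less. Of 25 measured, 4 were higher and 1 was lower, and the median log2 ratio was 0.51. Hmgcs1, an early enzyme of sterol synthesis, stood at 845 CPM in mature and 388 CPM in precursor wells, with log2 ratios of 1.11 in 1025s_182s, 1.60 in 600s_182s and 0.39 in 613s, so that 613s passed no fold. The later enzymes Cyp51, Sc5d and Ebp had log2 ratios of 1.45, 1.28 and 2.23. Abca1, which exports cholesterol from cells, was the lower member, at 13.0 CPM in mature and 87.7 CPM in precursor wells.

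Among 28 measured transcription factors of the lineage, 6 were higher and 15 were lower in mature wells, and the median log2 ratio was -1.54. That median was -1.21 in 1025s_182s, -1.72 in 600s_182s and -0.94 in 613s. The higher ones were Myrf, the regulator of myelin genes, at 425 CPM in mature and 20.7 CPM in precursor wells, St18 at 152 CPM in mature and 5.97 CPM in precursor wells, the homeobox factor Nkx6-2 at 394 CPM in mature and 23.1 CPM in precursor wells, Zfp536, Carhsp1, which is an RNA-binding protein, and Zeb2. Factors that both stages share were closer. Olig1 and Sox10 passed no fold, at log2 ratios of -0.71 and -0.41, and Olig2 was lower, at 547 CPM in mature and 1232 CPM in precursor wells. Factors known from precursor cells differed more, with Sox5 at 1.76 CPM in mature and 191 CPM in precursor wells, Sox6 at 3.52 CPM in mature and 228 CPM in precursor wells, and Etv5, a target of growth factor signalling, at 14.0 CPM in mature and 616 CPM in precursor wells.

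Of 22 measured precursor genes outside the rule, none was higher and 21 were lower in mature wells, and their median log2 ratio was -5.74. Cspg4, the proteoglycan NG2 of precursors, was at 6.61 CPM in mature and 1102 CPM in precursor wells, the lowest log2 ratio over precursors of the genes named by rank (-7.18). The matrix proteoglycans Bcan and Vcan had log2 ratios of -4.81 and -6.31, and the sialidase Neu4 and the matrix glycoprotein Tnr of -6.26 and -5.79. Olig1 is the listed gene that did not pass the fold. Of 20 measured genes of committed precursors and newly formed oligodendrocytes, 3 were higher and 10 were lower when pooled, with a median log2 ratio of -1.07. Within sets the median was -0.27 in 1025s_182s, -0.23 in 600s_182s and -0.81 in 613s. In every set 2 were higher and 3 were lower, where 6.63% of all genes were higher and 14.4% were lower. The 3 higher when pooled were Nfasc, Cnksr3, a scaffold of kinase signalling, and Arpc1b, a subunit of the complex that branches actin, at 377 CPM in mature and 53.4 CPM in precursor wells.

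Apart from the label markers, the list with the highest median was that of the mature state genes, collected from known late stages of the lineage. This list was chosen with earlier results of these data known, so its place is a description only. Of 33 measured, 28 were higher and 2 were lower, and 22 were higher in every well set. Their median log2 ratio was 2.87. Trf, the iron carrier transferrin (chr9:103204001-103230444, minus strand, GRCm38), had 849 to 9649 CPM (median 4054) in mature wells and 9.28 to 6357 CPM (median 115) in precursor wells, with 12 precursor wells in the mature range. Il33, a nuclear alarmin (chr19:29925114-29960718, plus strand, GRCm38), had 0 to 5112 CPM (median 993) in mature wells and reached 100 CPM in 143 of them, against 15 of 228 precursor wells. The mature wells thus spread over the whole range for this gene. Car2, the carbonic anhydrase of oligodendrocytes, was at 1937 CPM in mature and 168 CPM in precursor wells. Ptgds, prostaglandin D synthase, stood at 2089.5 CPM in mature and 228 CPM in precursor wells, and Apod, a lipid-binding apolipoprotein, at 1031 CPM in mature and 140.5 CPM in precursor wells. Qdpr, which recycles tetrahydrobiopterin, and Ndrg1, a stress-responsive gene that is also mutated in a peripheral neuropathy, had log2 ratios of 2.61 and 4.37. Tnni1, a troponin chain of slow muscle, and Synpr, a synaptic vesicle protein, are listed as state markers of some oligodendrocytes, and stood at 307 and 234 CPM in mature and at 6.76 and 5.18 CPM in precursor wells. The lower members were S100b, a calcium-binding protein of glia, at 91.2 CPM in mature and 459 CPM in precursor wells, and the glutathione transferase Mgst3. Klk6, a protease that marks some mature oligodendrocytes, was at 17.5 CPM, reached 100 CPM in 5 of 197 mature wells and passed no fold.

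Cytoskeleton genes had 19 of 35 measured members higher and 4 lower, and the median log2 ratio was 1.04. Sept4, a septin of the filaments under the myelin membrane, had 1410.5 to 8341 CPM (median 3210.0) in mature wells and 7.84 to 3116 CPM (median 91.7) in precursor wells, and 6 precursor wells lay in the mature range. Tubb4a, the main beta tubulin of these cells, was at 4069 CPM in mature and 907 CPM in precursor wells, and Tppp, which bundles and nucleates microtubules, at 1052 CPM in mature and 104 CPM in precursor wells. The actin-severing Gsn and the small heat shock protein Cryab had log2 ratios of 1.77 and 2.00, and the microtubule genes Mapt, Stmn4 and Stmn1 of 1.62, 2.57 and 2.05. Lower were Marcks, a membrane-bound actin regulator, at 26.2 CPM in mature and 438 CPM in precursor wells, and Map2, a microtubule protein of dendrites, at 44.7 CPM in mature and 188 CPM in precursor wells. The general cytoskeleton genes Actb, Cfl1 and Tuba1a passed no fold.

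In the list for sugar and lactate handling, 4 of 23 measured genes were higher and 7 were lower, and the median log2 ratio was 0.02. Slc16a1, which passes lactate to axons, was at 239 CPM in mature and 44.9 CPM in precursor wells, and Slc2a1, a glucose transporter, at 448 CPM in mature and 71.7 CPM in precursor wells. The other higher members were the lactate transporter Slc16a3 and the mitochondrial pyruvate carrier Mpc1. The share of lower members was close to that over all genes. Lower members included Pfkm at 53.8 CPM in mature and 306 CPM in precursor wells, Eno1 at 226 CPM in mature and 677 CPM in precursor wells, and the lactate dehydrogenase chains Ldha and Ldhb at log2 ratios of -1.24 and -2.04. Aldoc, another lower member, is also an astrocyte marker. Gapdh stood at 153 CPM in mature and 147 CPM in precursor wells.

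Iron and redox genes were 7 higher and 5 lower of 23 measured. Beside Trf and Qdpr, the higher ones were Tfrc, the transferrin receptor, at 58.4 CPM in mature and 18.7 CPM in precursor wells, the iron transporter Slc11a2, and the glutathione enzymes Gstp1, Gstm7 and Gpx4 at log2 ratios of 2.21, 2.32 and 1.19. The ferritin chains Fth1 and Ftl1, which store iron, passed no fold, at log2 ratios of 0.90 and 0.39. Cp, the ferroxidase ceruloplasmin, was lower, at 4.85 CPM in mature and 93.4 CPM in precursor wells.

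Among 37 measured receptor and signal genes, 15 were higher and 18 were lower. Gpr37, an orphan receptor of myelinating cells, had 264 to 7520.4 CPM (median 2094) in mature wells and 0 to 2844 CPM (median 25.1) in precursor wells, with 11 precursor wells at or above the lowest mature well. Its close relative Gpr37l1 ran the other way, at 141 CPM in mature and 2392 CPM in precursor wells. The lysophospholipid receptors Lpar1 and S1pr5 were at 911 and 572 CPM in mature and at 40.5 and 22.5 CPM in precursor wells. Fgfr2 was at 646 CPM in mature and 28.0 CPM in precursor wells, whereas the other fibroblast growth factor receptors on the list were lower, with log2 ratios of -2.49 for Fgfr1 and -2.13 for Fgfr3. Of the guidance molecules, the semaphorin Sema4d, the ephrin Efnb3 and the netrin receptor Unc5b had log2 ratios of 3.49, 3.91 and 5.17. The glutamate receptor genes Gria2, Gria3 and Grm5 were lower, with log2 ratios of -5.05, -5.53 and -5.23, while Grm3 was higher (3.57). The neurotrophin receptors Ntrk2 and Ntrk3 stood at 85.5 and 0.670 CPM in mature and at 926 and 77.4 CPM in precursor wells. Notch1 and its target Hes1 were lower as well, at log2 ratios of -2.30 and -4.49. Erbb3, a neuregulin receptor, was higher when pooled (1.09), but within sets it had log2 ratios of 1.51 in 1025s_182s, 2.21 in 600s_182s and -0.85 in 613s.

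No proliferation gene was higher and 13 of 16 measured were lower, 6 of them in every well set. Ccnd1, the cyclin that growth factors induce, was at 14.5 CPM in mature and 1048 CPM in precursor wells, and Mki67, a marker of dividing cells, at 1.37 CPM in mature and 62.1 CPM in precursor wells, with 19 precursor wells and 1 mature well at 100 CPM or more. Pcna passed no fold (87.9 CPM in mature and 73.2 CPM in precursor wells). Of 20 ribosomal protein genes, 1 was lower and none higher, with a median log2 ratio of -0.26. Of 20 dissociation and stress genes, 5 were higher and 4 were lower, with the heat shock gene Hspa1a at 104 CPM in mature and 10.8 CPM in precursor wells and the immediate early gene Jun at 254 CPM in mature and 672 CPM in precursor wells.

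By rank among genes that moved the same way in every well set, the highest ratio over precursors was that of Sgk2, a kinase related to SGK1, at 211 CPM in mature and 3.05 CPM in precursor wells (log2 ratio 5.71). Tnni1, Synpr and Unc5b were also among the first 15. Others of these were Smco3 (279.9 CPM in mature and 6.86 CPM in precursor wells), the planar polarity gene Prickle1 (527 CPM in mature and 15.7 CPM in precursor wells), the interleukin receptor chain Il12rb1 (44.3 CPM in mature and 0.381 CPM in precursor wells), the secreted protein gene Olfml1 (323 CPM in mature and 9.33 CPM in precursor wells), and Rasal1, which turns off RAS (245 CPM in mature and 6.89 CPM in precursor wells). Sp7, best known as the bone factor osterix, was at 40.2 CPM in mature and 0.310 CPM in precursor wells. Tmem88b, a membrane protein of less known role, had 19.3 to 4576 CPM (median 1094) in mature wells, and a summed level of 41.2 CPM in precursor wells. After Cspg4, the lowest were Emid1 (2.88 CPM in mature and 495 CPM in precursor wells), the semaphorin Sema5b (1.95 CPM in mature and 333 CPM in precursor wells), the chondroitin sulfotransferase Chst11 (1.58 CPM in mature and 285 CPM in precursor wells), Igsf21 (2.85 CPM in mature and 424 CPM in precursor wells), the ligand Wnt7b (0.942 CPM in mature and 201 CPM in precursor wells), Lhfpl3 (6.32 CPM in mature and 759 CPM in precursor wells) and Rlbp1, a retinaldehyde-binding protein (4.59 CPM in mature and 539.5 CPM in precursor wells).

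The Enpp6-high wells were taken as the stage between, although 25 of the 78 met every other criterion of the mature rule. No gene besides Enpp6 had to be present in them, and 63 of them came from 600s_182s. They share their mature counterpart wells with the comparison above, so the values are given side by side. Of 10334 genes measured, 1288 were higher (12.5%) and 2055 were lower (19.9%) in mature than in Enpp6-high wells, and 486 (4.70%) and 484 (4.68%) kept that direction and size in every well set, where 2 of the sets held only 7 and 8 Enpp6-high wells. Of the 17 measured myelin protein genes outside the rule, 10 were higher and 1, Bcas1, was lower. Of the 34 mature state genes, 29 were higher and 2 were lower, and their median log2 ratio was 2.89. Of 22 newly formed oligodendrocyte genes, none was higher and 20 were lower, with a median of -3.96. In every well set, 5 of the myelin protein genes and 18 of the state genes were higher, where 4.70% of all genes were. Of the newly formed genes, 14 were lower in every set, where 4.68% of all genes were. Some of these lists hold genes known from the same stages that Enpp6 marks, and Enpp6 itself chose the wells.

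Across precursor, Enpp6-high and mature wells, in that order, the genes followed different courses in levels pooled over sets. One course was low, low and high. Opalin was at 64.4, 127 and 1430.3 CPM, Mal at 253, 249.7 and 4095 CPM, and Aspa at 19.8, 21.7 and 633 CPM. Car2 (168, 118 and 1937 CPM), Il33 (62.3, 27.8 and 962 CPM) and Cntn2 (29.0, 22.2 and 597 CPM) did the same. In another, most of the difference lay before the Enpp6-high stage. Cnp was at 1097, 4437 and 5760.4 CPM, and Myrf at 20.7, 525 and 425 CPM. Lgi3 (131, 1438 and 2345 CPM), Ugt8a (325, 1189.7 and 1631 CPM) and Cldn11 (399, 2227 and 3571 CPM) belonged here too. Another course peaked in the middle. Bmp4, a growth factor of committed precursors, was at 17.3, 545 and 2.77 CPM, Fyn, a kinase that acts at the start of myelination, at 147, 2019 and 57.3 CPM, and Tcf7l2, a transcription factor of the same step, at 76.5, 689 and 56.9 CPM. Itpr2, Gpr17 and Bcas1 had the same shape, with Gpr17, a receptor that holds cells at this stage, at 1149, 2696 and 147 CPM. In the last course, genes were high in precursors alone. Cspg4 was at 1102, 54.4 and 6.61 CPM, Ccnd1 at 1048, 28.1 and 14.5 CPM and Ntrk2 at 926, 138 and 85.5 CPM. Nfasc was at 1324 CPM in mature and 2936 CPM in Enpp6-high wells, lower in the mature wells, and Sema4d at 806 CPM in mature and 1208 CPM in Enpp6-high wells, under the fold. These examples were chosen from the lists after their values were seen.

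**Figure D3:**
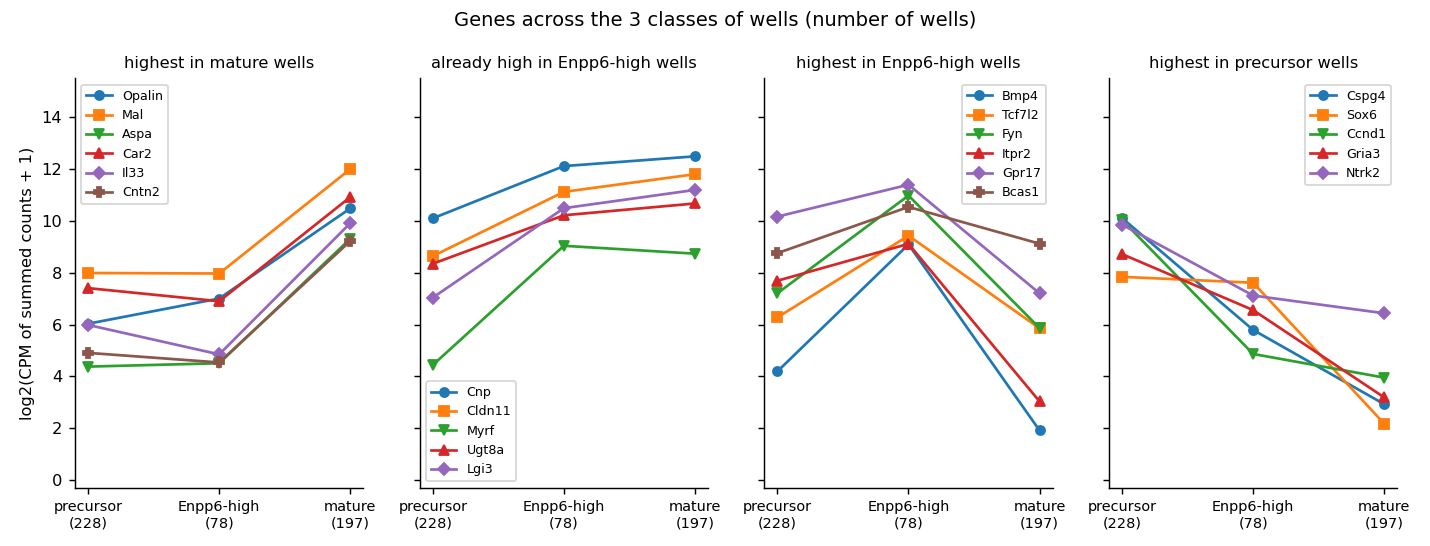
Level, as log2(CPM of summed counts + 1), of chosen list genes in precursor, Enpp6-high and mature wells, in 4 panels by the course of their levels. Opalin, Mal, Aspa, Car2, Il33 and Cntn2 stay low until the mature wells, while Bmp4, Fyn, Itpr2, Tcf7l2, Gpr17 and Bcas1 are highest in the Enpp6-high wells.

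By rank against the Enpp6-high wells, the highest ratios were those of Adamtsl1 (75.5 CPM in mature and 0.223 CPM in Enpp6-high wells), the protease Adamts2 (76.0 CPM in mature and 0.769 CPM in Enpp6-high wells) and the potassium channel Kcnk13 (245 CPM in mature and 5.31 CPM in Enpp6-high wells). Olfml1, Sp7 and Il33 were among the first 10 as well. Folh1, a carboxypeptidase that acts on N-acetylaspartylglutamate, was at 46.7 CPM in mature and 0.446 CPM in Enpp6-high wells. The lowest were Rassf10 (0.602 CPM in mature and 238 CPM in Enpp6-high wells), the proline synthesis enzyme Pycr1 (2.33 CPM in mature and 415 CPM in Enpp6-high wells), Panx1 (0.954 CPM in mature and 226 CPM in Enpp6-high wells), Tnr (12.3 CPM in mature and 1444 CPM in Enpp6-high wells) and the semaphorin Sema4a (3.27 CPM in mature and 348 CPM in Enpp6-high wells). Beside these values, the summed microglia markers were at 228 CPM in mature and 76.7 CPM in Enpp6-high wells, and those of neurons at 541 CPM in mature and 274 CPM in Enpp6-high wells. The dissociation and stress list had 15 of 20 genes higher in mature than in Enpp6-high wells, with Fos at 477 CPM in mature and 110.1 CPM in Enpp6-high wells. Their part in the result was not tested.

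The spread among mature wells differed between genes. Among 4061 genes with a mean of at least 50 CPM, the SD of log2(CPM + 1) about the mean of the well's set had a median of 3.04. It was lowest for Cnp (0.41), Aplp1 (0.41), Syt11 (0.43), Mbp (0.43), Sept4 (0.43) and Ywhaq (0.43), with Cldn11, Pllp, Mobp and Opalin also among the lowest 15. The mean levels of these 15 ran from 291 CPM for Ubb to 6504 CPM for Cnp. A low gene can be missed in many wells, which widens the SD. How far the SD depends on the level was not tested. The largest values were those of Hapln2, a link protein of the nodal matrix (3.85), the potassium channel Kcnk13 (3.82), Adamtsl4 (3.81), the glutamate receptor Grm3 (3.81), Xrcc3 (3.80), the integrin chain Itgb4 (3.79) and Arc, an activity-induced gene (3.78). Hapln2 had 0 to 3275 CPM (median 4.77) over the mature wells and reached 100 CPM in 82 of 197, and Grm3 in 93.

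At 100 CPM, Il33 was found in 143 wells and Apod in 187, and all 143 Il33 wells also held Apod. Hapln2 and Il33 were together in 74 wells, so most of the 82 Hapln2 wells were Il33 wells. Hapln2 and Synpr, with 82 and 92 wells, were together in 21 wells, and Hapln2 and Grm3 in 49. Of the 47 wells with Anln, an actin-binding scaffold, 31 held Hapln2. Fos and Egr1, which dissociation can induce, reached 100 CPM in 65 and 37 wells, with 34 in common. Wells share their set and differ in depth, so these overlaps are descriptions.

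The well sets differed among mature wells, a contrast the rule did not use. Against the mature wells of the other sets together, those of 600s_182s had 938 of 9733 genes higher (9.64%) and 995 lower (10.2%). Those of 1025s_182s had 568 of 9659 higher (5.88%) and 1331 lower (13.8%), and those of 613s 1060 of 9778 higher (10.8%) and 795 lower (8.13%). With the set are confounded any animal, line, plate or day that it stands for, and these cannot be told apart.

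The mature wells of 600s_182s held more reads of genes of earlier stages. Of 19 measured newly formed oligodendrocyte genes, 14 were higher and none was lower there, with a median log2 ratio of 1.51 over the other sets, where the median of all genes was 0.02. The summed level of this list had 2131 to 16603 CPM (median 5600.0) in 600s_182s, 379.7 to 8645 CPM (median 3357) in 1025s_182s and 676 to 9949 CPM (median 3128) in 613s. The sets overlapped, but the median of 600s_182s was above those of both others. Gpr17 was at 366 CPM in 600s_182s, against 63.2 CPM in 1025s_182s and 65.3 CPM in 613s, and it reached 100 CPM in 44 of 51, 8 of 70 and 13 of 76 wells. Nfasc was at 2487 CPM there, against 993 CPM in 1025s_182s and 808 CPM in 613s, and Rras2, a small GTPase, at 52.4 CPM, against 3.39 CPM in 1025s_182s and 1.20 CPM in 613s. Of 16 measured precursor genes, 11 were higher and 1 was lower in 600s_182s, with a median of 1.33, among them Bcan at 244 CPM, against 29.4 CPM in 1025s_182s and 38.3 CPM in 613s. The highest ratios by rank rested on few wells, such as that of Casr, the calcium-sensing receptor, at 30.9 CPM in 600s_182s, against 0.219 CPM in 1025s_182s and 1.29 CPM in 613s, with 4 of 51 wells at 100 CPM. Cntn1, also carried by precursors, was at 983 CPM, against 267 CPM in 1025s_182s and 253 CPM in 613s.

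Genes of the mature state went the other way. In 600s_182s, 15 of 34 were lower and 1, the CTP synthase Ctps, was higher, with a median log2 ratio of -0.93. Their summed level had 7507 to 34038 CPM (median 16249) in 600s_182s, 10429.7 to 36652 CPM (median 26365) in 1025s_182s and 8409 to 41383 CPM (median 22749) in 613s. Il33 was at 341 CPM in 600s_182s, against 1081 CPM in 1025s_182s and 1282 CPM in 613s, and reached 100 CPM in 21 of 51, 55 of 70 and 67 of 76 wells. Anln was at 8.73 CPM, against 102 CPM in 1025s_182s and 201 CPM in 613s, Hapln2 at 60.5 CPM, against 307 CPM in 1025s_182s and 295 CPM in 613s, and Car2 at 968 CPM, against 2505 CPM in 1025s_182s and 2147 CPM in 613s. The myelin protein list moved little with the set: none of 17 genes was higher and 2 were lower in 600s_182s, with a median of -0.08.

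**Figure D4:**
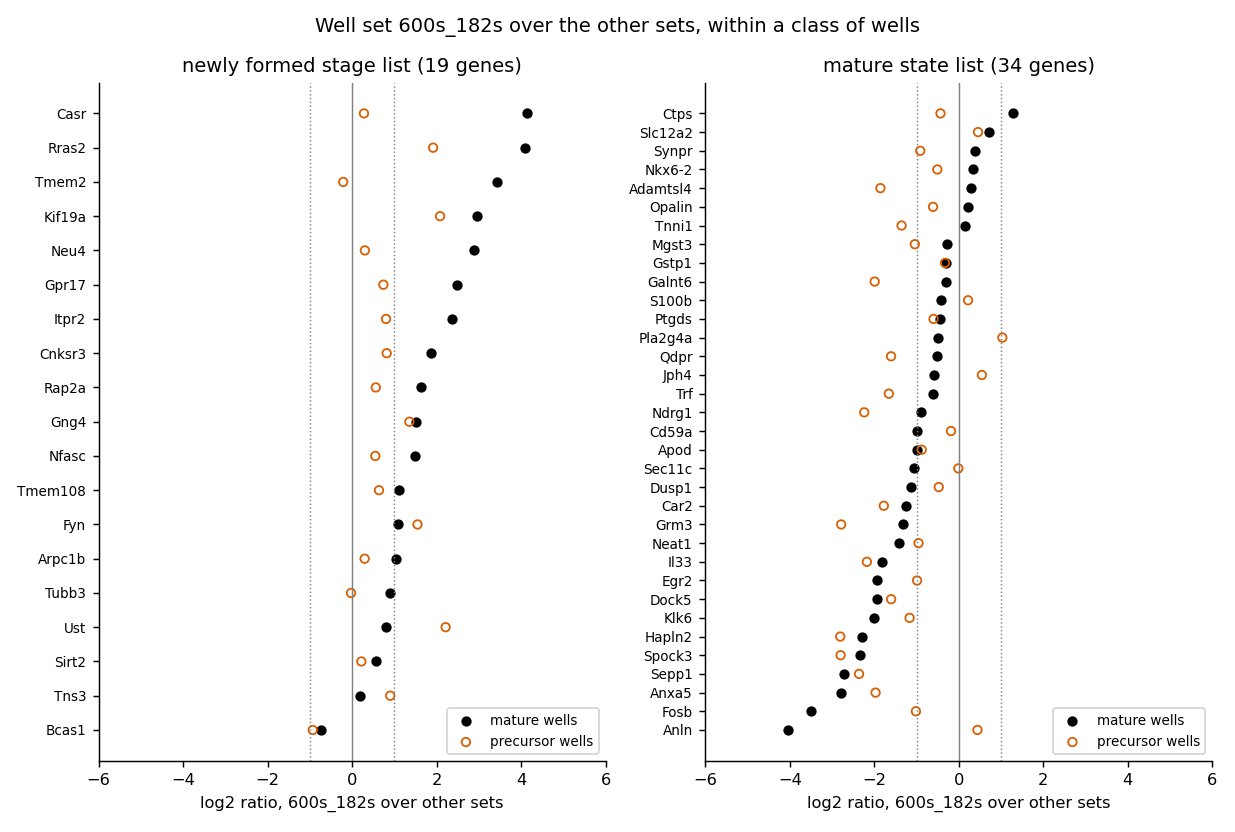
Log2 ratio of 600s_182s over the other well sets together for the measured newly formed oligodendrocyte genes and mature state genes, in mature wells (filled) and precursor wells (open). In mature wells 14 of the 19 newly formed genes lie above 1 and 15 of the 34 state genes lie below -1.

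The same ratio was taken among precursor wells, where 15.8% of all genes were higher and 11.8% were lower in 600s_182s. There, 16 of 30 state genes were lower (median -1.03). Of the newly formed genes, 6 of 21 were higher and 1 was lower (median 0.63), and 4 of 22 precursor genes were higher (median 0.36), a share near that over all genes. Whether the set difference was larger in mature than in precursor wells was not tested. Enpp6 itself, limited by the rule, had a median of 29.7 CPM in the mature wells of 600s_182s, against 0 in 1025s_182s and 5.31 CPM in 613s. With mature wells under 20 CPM of Enpp6 alone (15 wells in 600s_182s, 63 in 1025s_182s and 64 in 613s), 11 of 18 newly formed genes and 9 of 15 precursor genes were higher in 600s_182s, and 14 of 33 state genes were lower, where 13.9% of all genes were higher and 17.1% were lower. This last choice was made after the data were seen.

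Transcripts of other cells moved with the same sets. In 600s_182s, all 10 astrocyte markers were lower in mature wells than in the other sets, with a summed level of 250.2 CPM against 1103 CPM in those, and 6 of 8 measured neuron markers were lower (268 CPM in 600s_182s and 643 CPM in the others). Microglia markers were at 82.4 CPM in 600s_182s, against 105 CPM in 1025s_182s and 417 CPM in 613s. Endothelial markers were at 27.2 CPM in 600s_182s, against 45.8 CPM in 1025s_182s and 188 CPM in 613s. For both lists 1025s_182s lay closer to 600s_182s than to 613s. Ttr, the transthyretin of the choroid plexus, was at 0.915 CPM in 600s_182s, against 137 CPM in 1025s_182s and 196 CPM in 613s. By rank, Ttr had the lowest ratio, followed by Mlc1, a membrane protein of astrocytes, at 0.915 CPM in 600s_182s, against 82.4 CPM in 1025s_182s and 61.9 CPM in 613s. The neurotrophin receptor Ngfr, the astrocyte marker Aldh1l1 and Anln were among the lowest 10. The stress list had 12 of 19 genes lower and 1 higher in 600s_182s, with Fos at 221 CPM, against 658 CPM in 1025s_182s and 509 CPM in 613s. A median of 5049 genes was detected per mature well of 600s_182s after thinning to 50000 reads, against 2716.5 in 1025s_182s and 3711.5 in 613s. The part of these differences in the result was not tested. Without wells that held at least 3 markers of another cell type at 200 CPM, 13 of 19 newly formed genes were higher and 16 of 34 state genes were lower in 600s_182s, where 10.8% of all genes were higher and 10.3% were lower.

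In 613s, 6 of 7 measured microglia markers were higher than in the other sets, carried by few wells: Cx3cr1 was at 42.5 CPM and reached 100 CPM in 5 of 76 wells. The state list there had 6 of 34 genes higher, with a median of 0.29. In 1025s_182s, 9 of 16 newly formed genes were lower (median -1.40), as were 13 of 21 in its precursor wells (median -1.10), where 27.7% of all genes were lower. The genes ranked first in 1025s_182s, such as the transporter Slc13a3 at 29.9 CPM, rested on few wells, with 3 of 70 at 100 CPM for Slc13a3. The lowest by rank there included Tnfrsf21, a death receptor known to restrain oligodendrocyte maturation, at 1.09 CPM, against 100.0 CPM in 600s_182s and 30.3 CPM in 613s.

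Markers of cells that the sort could hold were also counted in each class. At least 3 markers of another cell type reached 20 CPM in 128 of 197 mature wells (65.0%, interval 57.9 to 71.6%), in 50 of 78 Enpp6-high wells and in 223 of 228 precursor wells. At 200 CPM these counts were 44 (22.3%), 6 and 188, where the astrocyte list alone gave 183 of the precursor wells. The summed astrocyte markers were at 870 CPM in mature and 3362 CPM in precursor wells, with all 10 of them at 10 CPM or more in the mature wells. Clu and Aldoc, which precursors are known to share with astrocytes, were at 254 and 252 CPM in mature and at 797 and 605 CPM in precursor wells, while Gfap and Aqp4 were at 24.8 and 13.0 CPM in mature and at 27.2 and 16.2 CPM in precursor wells. Neuron markers were at 541 CPM in mature and 1060.2 CPM in precursor wells, and microglia markers at 228 CPM in mature and 104 CPM in precursor wells, with a range of 0 to 6998 CPM over mature wells. In 1025s_182s, 600s_182s and 613s, in that order, neuron markers were at 597, 268 and 678 CPM in mature wells. In precursor wells they were at 1718, 826 and 1695 CPM, past the fold in every set. Microglia markers were at 105, 82.4 and 417 CPM in mature and at 112, 99.2 and 121 CPM in precursor wells, so they were higher in 613s alone. Endothelial markers were at 99.7 CPM in mature and 88.0 CPM in precursor wells, and choroid plexus and ependyma markers at 211 CPM in mature and 90.0 CPM in precursor wells, with Tmem212 at 0 reads in the mature wells. Of the Schwann cell markers, Pmp2 had 0 reads in the mature wells, which allows up to 0.0341 CPM by 3 counts of their 88070168 reads. Without the wells over the 200 CPM count, 153 mature and 40 precursor wells were left, and 2022 genes were higher. Of the 1306 higher genes 1100 were called again, and of the 3502 lower genes 2640. Reads of joined cells, of free RNA and of the cell itself cannot be told apart.

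**Figure D5:**
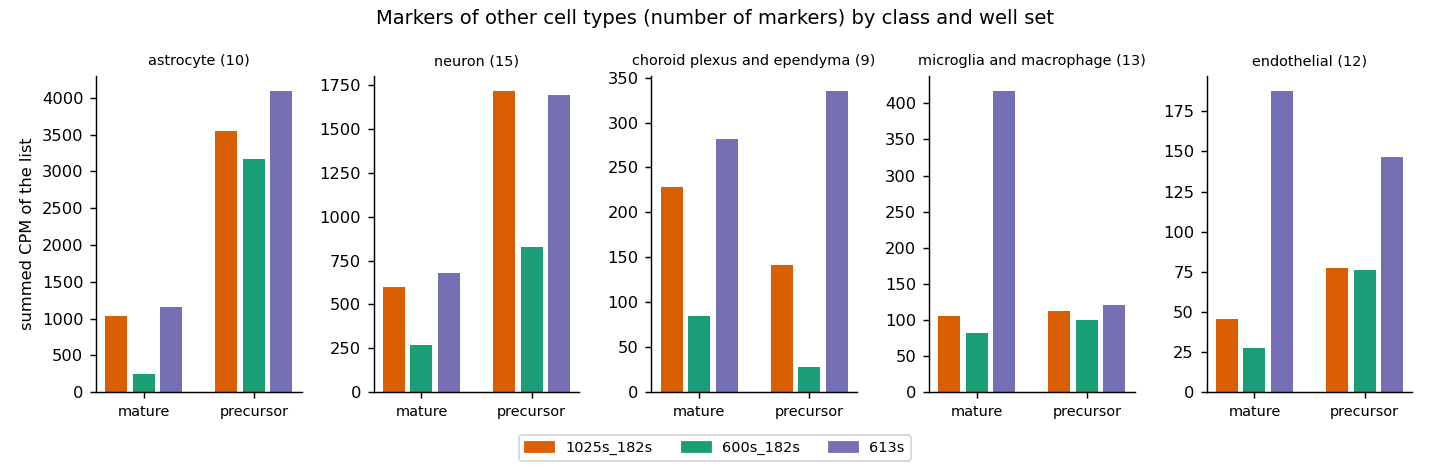
Summed CPM of markers of astrocytes, neurons, choroid plexus and ependyma, microglia and endothelial cells in the mature and precursor wells, with a bar for each well set. Pooled over the sets, astrocyte markers are lower in mature than in precursor wells (870 CPM in mature and 3362 CPM in precursor wells). Pooled neuron markers differ by just under the fold (541 CPM in mature and 1060.2 CPM in precursor wells), and microglia markers are higher (228 CPM in mature and 104 CPM in precursor wells). Within every set, neuron markers are lower in mature wells by more than the fold, and microglia markers are higher in 613s alone.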

How the data were processed

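RNA of single sorted cells of the adult mouse brain was measured with SMART-seq2. The values are read counts per gene and well as deposited, whole and not normalized, for 46517 genes in 1152 wells. Per the submitters' processing notes, the tools were TopHat2 (2.1.1) and SAMtools (0.1.18), then featureCounts from the Subread package (1.4.6-p5), on GRCm38 (mm10). For the annotation, the strand setting and the handling of shared reads, details were not given in the sources used here, so genes that overlap, lie antisense or have close paralogs are uncertain. There are no molecular identifiers, and every interval covers counting error only.

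Counts were scaled to CPM by the total of each well. Of the wells, 295 had under 50000 reads and were left out. Class levels are CPM of summed counts (88070168 reads in mature, 40328494 in Enpp6-high and 70859123 in precursor wells), and ratios are log2 with 1 CPM added. A gene counts as higher or lower past 1 on the log2 scale with at least 10 CPM in the higher class. Genes used by the rule are left out of counts of list members, and a list member with under 10 CPM in both classes is not counted as measured. Shares have exact Clopper-Pearson 95% intervals. No test was made, since all wells are 1 sample. The method was tested on simulated counts with known fold changes and no differences between well sets. That simulation therefore does not cover differences between sets.

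Named genes are the 15 highest and 15 lowest ratios over precursors (10 each against Enpp6-high wells and between sets) among genes called the same way in every set, the 15 most variable and steadiest genes, and members of fixed lists; names starting Gm or ending Rik were left out, and between sets no within-set call was asked. Members and lists were chosen with earlier results of these data known. Alternatives changed the scaling, the added CPM, the minimum, depth, thresholds, well sets and wells with markers of other cells. Symbols were matched to GENCODE vM21 (42052 of 46517, 90.4%), and 476 of 479 list symbols were in the table. Promoters come from RefSeq. Some members of the lists are not reported here by name. Python 3.11.15, numpy 2.4.6, pandas 2.3.3, scipy 1.17.1 and matplotlib 3.10.9 were used.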

Additional observations from a re-analysis of the deposited data

Results flagged for a closer look

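Among the 295 wells under 50000 reads, 4 wells, all of 1025s_182s, met every other criterion of the mature class. They held 2676, 3820, 5093 and 5187 reads, so their CPM of Mog rested on 3 to 10 reads and their CPM of Mag on 10 to 31 reads. Each also held reads of the 3 label genes outside the rule, with 1 to 3 reads of Opalin, 2 of Ermn and 7 to 13 of Mobp. These wells entered no comparison.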

How the results depend on the processing

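The count of mature wells stayed within 1.5 times of 197 with a doubled read minimum, a mitochondrial limit of 10%, halved or doubled Mog and Mag minimums or Enpp6 under 200 CPM. Against precursors, the 1306 higher genes became 2022 without wells holding 3 markers of another cell type at 200 CPM, and the 3502 lower became 1534 with at least 50 CPM. The higher count was 1329 when astrocyte markers were not used to leave out wells and 1344 when all precursor wells were kept. These alternatives kept 182 and 228 precursor wells, against 40 in the setting with 2022 higher genes. The number of wells left and their astrocyte markers thus changed together, and the part of each was not tested. Both alternatives were chosen after seeing the data. Against Enpp6-high wells, the 1288 higher genes became 2491 with the mean of the sets' ratios, 2306 with no minimum, 669 with at least 50 CPM and 2169 without 600s_182s, and the 2055 lower became 3184 with no minimum and 968 with at least 50 CPM. The 995 genes lower in 600s_182s became 1686 with Enpp6 under 20 CPM, and the 128 mature wells with markers of other cells became 44 at 200 CPM. A minimum changes how many genes are tested, and for the mean of sets, 600s_182s left out and Enpp6 under 20 CPM the cause was not tested.

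Among single genes against precursors, the log2 ratio turned to 0.036 for Acsbg1, 0.19 for Nrp1 and 0.83 for Shmt1 without wells of other markers, to 1.05 for Aurkb, -0.043 for Erbb3, 0.061 for Mcm2, 1.28 for Mcm5, 0.99 for Sox2 and 0.005 for Steap3 without 600s_182s, to 0.003 for Cdkn1a with the mean of sets, and to -0.14 for Egr2 without 613s. Between sets, Klk6 turned to 0.16 in 600s_182s with Enpp6 under 20 CPM and Hspa1b to -0.64 in 613s without wells of other markers. Of the other values for single genes, 7648 held and 666 moved. Of 102 counts, 92 held, and of 288 list medians 262 held. Medians of 5 lists changed sign among the alternatives: receptors -1.62 to 1.09, connexins -0.31 to 0.78, iron -0.09 to 0.75, sugar handling -0.17 to 0.20 and stress -0.35 to 0.29. Scaling by the median ratio moved the median of genes at 10 CPM in both classes from -0.18 to 0. No paired analysis was possible because all wells are 1 sample. The mitochondrial limit on precursor wells was not run against Enpp6-high wells, which carry it already. The limits are the single sample, the sets of unlike make-up, the depth of single wells and classes cut from the transcripts they are then described by.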

Other observations

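Transcripts of the sex chromosomes were read in the mature wells, since the labels state that animals of both sexes were used. Xist had reads in 3 of 197 mature wells, at most 2.36 CPM, and Y-linked genes (Ddx3y, Uty, Kdm5d and Eif2s3y) in 182. The mature wells thus gave hardly any sign of female cells. Over all 857 kept wells, Xist had reads in 31, reached 20 CPM in 8, and Y-linked reads were found in 781. No label ties a well to an animal.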
